A study of Mus musculus with 2 samples.

Results

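Naive CD8 T cells were the cells of these mouse livers that carried T cell receptor and CD8 transcripts together with those of Lef1, Tcf7 or Dapl1 and none of a set of genes of other or differentiated cells. They numbered 141 of 20753 cells, 64 in one library and 77 in the other. Fibrosis had been induced in all of the mice with CCl4 (carbon tetrachloride), which injures hepatocytes. The CCl4 group and the CCl4+IPA group, the second also given the gut-derived metabolite indole propionic acid, were each sequenced as 1 library. Both groups had received CCl4, no uninjured liver is analysed here, and strain, age, sex, dose, duration and the number of animals behind each library are not given in the sources used here. With 1 library per group no difference between them has a replicate check. No test was run, and every 95% interval below covers counting error only.

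A naive CD8 T cell is one that has left the thymus and not yet met its antigen. Such cells recirculate between blood and lymphoid organs, which they enter through the chemokine receptor Ccr7 and leave through the sphingosine phosphate receptor S1pr1. The transcription factors Tcf7 and Lef1 maintain this resting state, and on activation the cells acquire granzymes, cytokines and tissue-homing receptors. Liver holds mostly differentiated CD8 T cells, and naive cells found there may be in passage through its blood.

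Cells were first required to hold at least 500 unique molecular identifiers (UMIs, each a counted transcript molecule), at least 300 genes and under 20% mitochondrial UMIs, which kept 10294 of the CCl4 library's 10427 barcodes and 10459 of the CCl4+IPA library's 10471. Members then needed at least 2 UMIs of Cd3d, Cd3e and Cd3g together, at least 1 of Cd8a and Cd8b1, at least 1 of Lef1, Tcf7 and Dapl1, and no UMI of Cd4, Ccl5, Nkg7, Cd79a, S100a8 or Lyz2. In the CCl4 library 2867 cells passed the CD3 step, 1626 the CD8 step, 951 the naive gene step and 64 the step on the 6 absent genes. The same steps left 3411, 1893, 1170 and 77 cells in the CCl4+IPA library. The last step kept the smallest share of the cells that reached it, 6.73% and 6.58%, and the cytotoxic granule gene Nkg7 alone decided 110 cells in the CCl4 library and 130 in the other. A UMI of the chemokine gene Ccl5 was present in 18.8% and 24.7% of B cells, and of the neutrophil gene S100a8 in 20.3% and 21.2%. Ccl5 alone decided 28 and 41 cells and S100a8 alone 13 and 22. How many of these cells were naive was not tested.

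At the edges of the rule, 13 members in the CCl4 library and 18 in the CCl4+IPA library held exactly 1 CD8 UMI, while 155 and 164 cells met every other step with none. Exactly 1 UMI of the 3 naive genes was found in 7 members of each library, and 3 and 10 cells failed only for having none. Lef1 was detected in 57 and 64 members, Tcf7 in 49 and 57, and Dapl1, a gene of naive CD8 T cells, in 29 and 35. Both CD8 chains were seen in 39 and 52 members, Cd8b1 alone in 20 and 15, and Cd8a alone in 5 and 10. These values chose the members and are given as a description.

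The members held 231658 UMIs in the CCl4 library and 248584 in the CCl4+IPA library. Their median depth was 3703 and 2981 UMIs, and their median mitochondrial share 4.21% and 2.22%. The ribosomal RNA transcript Rn18s-rs5 made up 10.8% of the members' UMIs in the CCl4 library and 1.69% in the CCl4+IPA library, and 7.12% and 1.17% over all kept cells, so the gap was present beyond the members. The libraries shared 23 barcodes, of which 0 were members. Scrublet, a doublet caller, marked 1 member in the CCl4 library and 0 in the other.

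Members made up 0.622% of kept cells in the CCl4 library (0.479 to 0.793) and 0.736% in the CCl4+IPA library (0.581 to 0.919), a ratio of 1.18 (0.839 to 1.68). As a share of CD3-bearing cells they were 2.23% and 2.26%, a ratio of 1.01 (0.716 to 1.43). As a share of CD8-bearing cells without Cd4 they were 4.06% and 4.24%, a ratio of 1.04 (0.740 to 1.48). All 3 intervals of the ratio include 1, so no difference in abundance was detectable at this depth. Thinning every cell to 1000 UMIs, which also lets in cells whose only excluded UMIs were lost, gave 64 and 92 members and a ratio of 1.42 (1.02 to 1.98).

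The label was checked on genes outside the rule. With UMIs summed over the class and scaled to its total (CPM), Ccr7 was at 449 CPM in members of the CCl4 library and 780 CPM in those of the CCl4+IPA library, and Il7r, the receptor chain for the survival cytokine IL-7, at 859 and 1046 CPM. B cells, which also recirculate, held Ccr7 at 766 and 1190 CPM but Il7r at 7.21 and 10.8 CPM, so Ccr7 marks recirculating lymphocytes more widely than naive T cells. Transcripts of the alpha-beta T cell receptor were plain, with Trac at 319 and 459 CPM and Trbc2 at 1075 and 1110 CPM, against 13.0 and 4.02 CPM of the gamma-delta chain Trdc. All 9 stellate cell or fibroblast markers were at 0 in both libraries. Of 8 endothelial markers Cdh5, Kdr, Stab2, Clec4g, Lyve1 and Tek were at 0 in both, and the list summed to 90.7 and 133 CPM, of which Pecam1, which T cells can also carry, made up 86.3 and 125 CPM. Of 10 markers of natural killer (NK) cells Ncr1, Klrb1c, Klra4 and Klra7 were at 0 in both, and the list summed to 518 and 708 CPM, of which Txk, a kinase gene also on the naive list, made up 436 and 555 CPM. The 10 hepatocyte markers summed to 1 and 13 UMIs. Of 12 B cell markers 10 were detected in each library, at 734 and 937 CPM in sum. Ighm, the most abundant of them, was at 350 and 382 CPM and was found in 62.5% and 62.3% of members. It was at 128 and 168 CPM in effector CD8 T cells and at 271 and 393 CPM in naive CD4 T cells. Igkc was found in 40.6% and 49.4% of members and in 34.1% and 49.9% of effector CD8 T cells. The 10 neutrophil markers summed to 82.0 and 133 CPM, and S100a9 was found in 17.2% and 20.8% of members against 23.7% and 27.5% of B cells. The 12 monocyte or macrophage markers summed to 242 and 145 CPM. C1qa was at 0 in both libraries, and Csf1r had 0 and 2 UMIs. Ctss was found in 29.7% and 27.3% of members (112 and 109 CPM). Ccr2 had 13 UMIs in the CCl4 library, 11 of them in 1 cell, and 0 in the other. The 9 dendritic cell markers summed to 626 and 941 CPM, mostly Ccr7, and Siglech had 9 UMIs in 1 member of the CCl4 library. The part of free RNA in the results was not tested.

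A small number of members went against the label. Foxp3 (the factor that defines regulatory T cells), Zbtb7b (which directs the CD4 lineage) or Cd40lg (a ligand of helper T cells) had a UMI in 1 of 64 members under CCl4 and in 6 of 77 under CCl4+IPA. Each of these 7 cells held a single CD8 UMI, and together they held 0 UMIs of Dapl1. In the CCl4 library the 1 cell held 34 of the class's 38 S100a6 UMIs, 19 of its 20 S100a4 UMIs and 5 of its 22 Cxcl10 UMIs. In the CCl4+IPA library the 6 cells held 83 of 91 S100a6 UMIs, 24 of 26 S100a4 UMIs, 32 of 42 Ctla4 UMIs and 68 of 96 Cxcl10 UMIs. S100a4 and S100a6 encode calcium-binding proteins of antigen-experienced T cells, Ctla4 an inhibitory receptor abundant on regulatory T cells, and Cxcl10 an interferon-induced chemokine. By contrast the 6 cells held 4 of 194 Ccr7 UMIs. The 7 cells held all Foxp3 UMIs of the members, which follows from how they were chosen. Where a value named below rests on these cells it is also given without them, a comparison chosen after seeing the data.

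**Figure D1:**
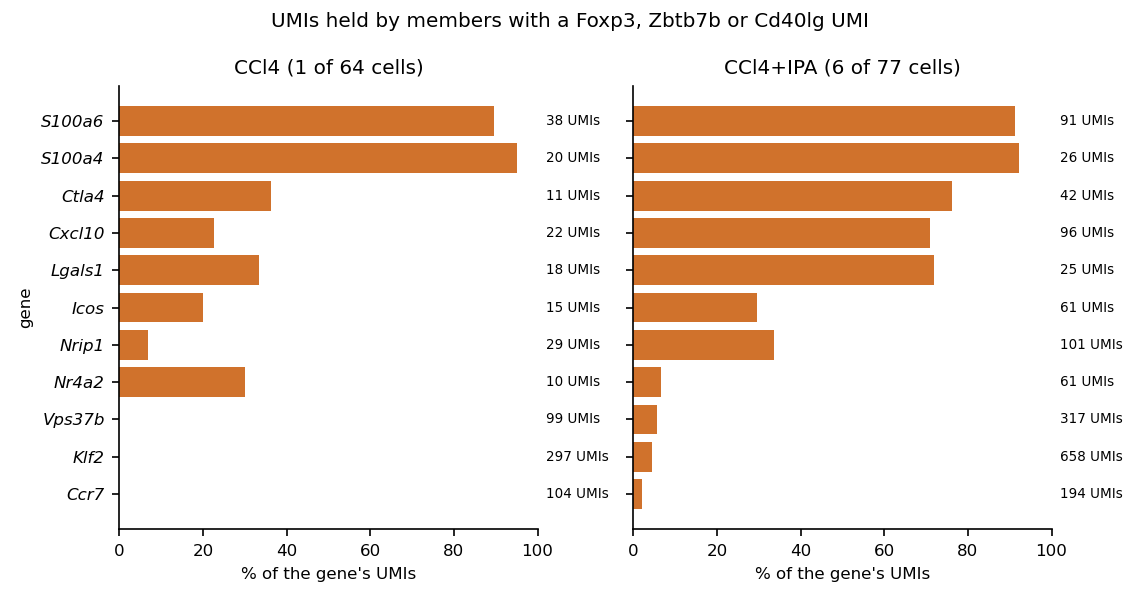
Share of each gene's UMIs (x axis, percent) held by members with a Foxp3, Zbtb7b or Cd40lg UMI, in the CCl4 library (1 of 64 cells) and the CCl4+IPA library (6 of 77 cells); the number at the right is the gene's UMIs over all members. These few cells hold 89.5% and 91.2% of S100a6 but 0% and 2.06% of Ccr7.

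Against effector CD8 T cells of the same library, members carried more of the naive programme and little of the cytotoxic one. Effector CD8 T cells were taken as CD8-bearing T cells with a UMI of Ccl5 or Nkg7, and numbered 932 and 1079. Of 9495 genes with at least 20 UMIs in the pair of classes in each library, 2.04% were at least 2-fold higher in members in both libraries and 5.26% at least 2-fold lower. Of 20 naive genes outside the rule 12 were at least 2-fold higher in both libraries and 0 lower, with median log2 ratios of 1.57 and 1.59 against -0.11 and -0.16 over all genes. Without the 7 cells in members, and with the effector class unchanged, 13 were higher. Of 20 effector and cytotoxic genes 17 were at least 2-fold lower and 0 higher. Because cells were split on Ccl5 and Nkg7, genes that travel with these were bound to differ, and the counts describe the split.

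Of the genes higher in members Slc28a2b had the highest ratio among those abundant enough to be named. Slc28a2b, a nucleoside transporter gene, was at 104 CPM in members of the CCl4 library and at 157 CPM in those of the CCl4+IPA library, against 15.6 CPM in effector cells of the second, ratios of 9.45 (5.51 to 15.8) and 10.1 (6.59 to 15.2). Ccr9, the receptor for the gut and thymus chemokine Ccl25, was at 112 against 20.5 CPM and 145 against 26.6 CPM, ratios of 5.47 (3.39 to 8.57) and 5.44 (3.63 to 7.99). Il6ra, the IL-6 receptor chain that naive T cells carry, was 5.78-fold (4.04 to 8.13) and 4.47-fold (3.19 to 6.15) higher. These 3 genes were higher in members by similar amounts in each library.

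Satb1, a chromatin organiser of developing and naive T cells, was at 941 against 270 CPM and 1275 against 383 CPM, ratios of 3.48 and 3.33 (2.94 to 3.76). Bach2, a repressor of effector differentiation, was 3.80-fold and 3.36-fold higher, and Actn1, an actin cross-linker, 3.25-fold and 3.93-fold. Ccr7 was 3.04-fold (2.44 to 3.74) and 3.78-fold (3.22 to 4.42) higher. Klf2, the factor that switches on S1pr1, was 1.60-fold and 2.02-fold higher and missed the 2-fold mark in the CCl4 library. Ms4a4b, also on the naive list, was at 958 against 1309 CPM and 1151 against 1200 CPM, ratios of 0.732 (0.637 to 0.838) and 0.959 (0.848 to 1.08).

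Most cytotoxic transcripts were low in members. Ccl4, a chemokine of activated CD8 T cells, was at 30.2 CPM (7 UMIs) and 96.5 CPM (24 UMIs) in members against 1718 and 2256 CPM in effector cells, 56.9-fold (27.6 to 141) and 23.4-fold (15.7 to 36.5) lower. Gzma, a granzyme, had 1 and 12 UMIs in members, 4.32 and 48.3 CPM, against 1048 and 1564 CPM. B cells held 61.8 and 168 CPM of Gzma and 190 and 309 CPM of Ccl4, more than members. B cells were not required to lack Ccl5 and Nkg7, and whether they made these transcripts themselves was not tested. The part of free RNA in the members' values was not tested. Ifng and Xcl1 had 0 UMIs in members of the CCl4 library, at least 25.4-fold and at least 13.5-fold lower than in effector cells when set at 3 UMIs of the class. Klrd1, the CD94 receptor chain, was the highest of the list in members, at 164 and 153 CPM against 375 and 399 CPM.

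Of 18 memory genes 13 were at least 2-fold lower in members than in effector CD8 T cells in both libraries, and 0 higher. Lgals1, a galectin of activated T cells, was at 77.7 against 769 CPM and 101 against 1003 CPM, and without the 7 cells with Foxp3, Zbtb7b or Cd40lg it was at 53.3 and 31.0 CPM in members. Il2rb, the receptor chain for IL-2 and IL-15, was at 60.4 against 291 CPM and 125 against 403 CPM, and Cxcr3, a receptor for interferon-induced chemokines, had 3 and 0 UMIs in members. Of 20 cell cycle genes 13 were lower, and Mki67 was detected in 0 of 64 members, which allows a share of cells with a UMI of up to 4.69% (3 cells of 64), and in 3 of 77.

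**Figure D2:**
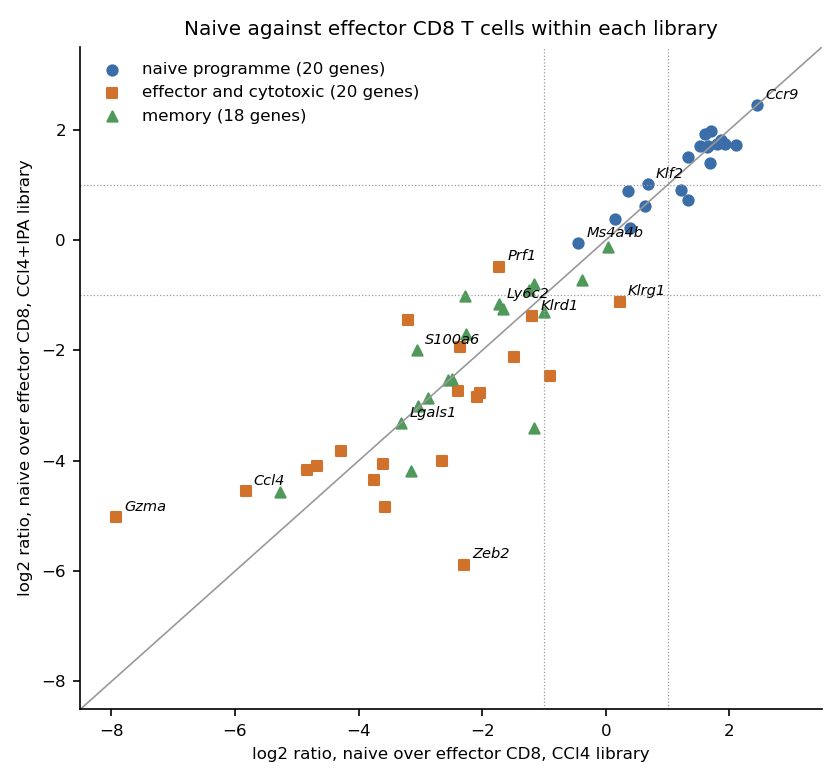
Log2 ratio of CPM in naive over effector CD8 T cells in the CCl4 library (x axis) and the CCl4+IPA library (y axis) for the naive, effector and memory lists, 1 point per gene; dotted lines mark 2-fold, and genes with no UMI in members are set at 3 UMIs. Of 20 naive genes 12 lie above 2-fold on both axes, and 17 of 20 effector genes lie below it on both.

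The promoter of Slc28a2b is shown because this gene had the highest ratio to effector CD8 T cells among the named genes, and because Lef1 and Tcf7, which chose the members, bind the same DNA letters. It spans 250 bases before to 50 after the start in RefSeq (GRCm38.p6, chr2:122484691-122484990, plus strand), with the match in capitals.
Slc28a2b promoter: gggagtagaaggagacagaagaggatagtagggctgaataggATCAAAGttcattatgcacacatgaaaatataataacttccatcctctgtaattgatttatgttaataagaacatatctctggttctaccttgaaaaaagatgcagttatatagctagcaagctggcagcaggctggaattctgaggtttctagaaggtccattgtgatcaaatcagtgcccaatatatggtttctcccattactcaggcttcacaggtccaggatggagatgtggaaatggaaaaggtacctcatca
The letters searched were CTTTGAA and CTTTGAT on either strand, and 8.65% of 32851 promoters of this length hold one. Of the 15 naive genes outside the rule with a promoter on record, Foxp1 and Txk (2 genes) held a match, and of 3 rule genes 0 did. Counted by promoter, as the 8.65% is, this was 2 of 23 and 0 of 7. Of 10 promoters of the named genes higher in members than in effector CD8 T cells 1 held a match, that of Slc28a2b. A match is a description of the letters only.

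Against naive CD4 T cells, chosen by the same rule with Cd4 in place of CD8 (91 and 144 cells), most naive genes differed by less than 2-fold. Both classes had to hold Lef1, Tcf7 or Dapl1 and lack Ccl5 and Nkg7, so this likeness was partly set by the choice of cells. The naive CD4 class also held S100a6 at 994 and 963 CPM, against 1366 and 1459 CPM in effector CD8 T cells. Of 20 naive genes 1 was at least 2-fold higher in members in both libraries and 1 lower, beside 0.565% higher and 2.83% lower of 3892 genes tested. Ccr7 was at 449 against 374 CPM and 780 against 711 CPM, and Satb1 at 941 against 691 CPM and 1275 against 1389 CPM, so neither differed by 2-fold in either library. Ccr9 was the member of the list that was higher, at 112 against 31.7 CPM and 145 against 48.3 CPM, with intervals of the ratio from 1.75 to 7.49 and from 1.74 to 5.25. Igfbp4, which encodes a binding protein of insulin-like growth factors, was lower, at 134 against 313 CPM and 177 against 497 CPM.

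Of the genes higher in members than in naive CD4 T cells Fam241a had the highest ratio in the CCl4 library among those abundant enough to be named. Fam241a was at 216 against 19.5 CPM and 257 against 22.2 CPM, the second an 11.6-fold difference (6.08 to 24.4). Klrd1 was at 164 against 17.1 CPM and 153 against 26.2 CPM, ratios of 9.60 (4.23 to 25.5) and 5.84 (3.04 to 11.9). Ly6c2, a surface antigen of many memory CD8 T cells, was at 242 against 48.8 CPM and 282 against 16.1 CPM, ratios of 4.95 (2.92 to 8.71) and 17.5 (8.40 to 42.1). Klrd1 was found in 37.5% and 35.1% of members and in 2.92% and 3.39% of B cells, whose median depth was 2856.5 and 2415 UMIs against 3703 and 2981.

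Of 14 memory genes 8 were at least 2-fold lower in members than in naive CD4 T cells in both libraries, and Ly6c2 was the 1 higher. Without the 7 cells with Foxp3, Zbtb7b or Cd40lg 10 were lower and 1 higher. These cells were taken out of the members only. The naive CD4 class kept all its 91 and 144 cells, also those with these genes, so the filter was one-sided. The integrin chain Itgb1 was at 38.9 against 283 CPM and 48.3 against 215 CPM, 7.29-fold (3.71 to 16.3) and 4.46-fold (2.45 to 8.91) lower. S100a4 was at 86.3 against 635 CPM and 105 against 477 CPM, but without those cells members held 1 and 2 UMIs, 4.44 and 8.86 CPM. Lgals1 was 6.38-fold and 4.34-fold lower with them, and 9.31-fold (5.21 to 18.3) and 14.1-fold (6.72 to 35.5) lower without. The naive CD4 class held S100a4 at 635 and 477 CPM, against 507 and 609 CPM in effector CD8 T cells. It held Itgb1 at 283 and 215 CPM, against 287 and 349 CPM. Its rule put no demand on memory genes, so memory CD4 T cells were not excluded from it. Nor did the rule put a demand on Foxp3, which stood at 36.6 and 62.4 CPM in naive CD4 T cells and 21.6 and 20.1 CPM in members. In members all of it was in the 7 cells, by the way they were chosen. The part of memory and regulatory CD4 T cells in the difference was not tested.

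**Figure D3:**
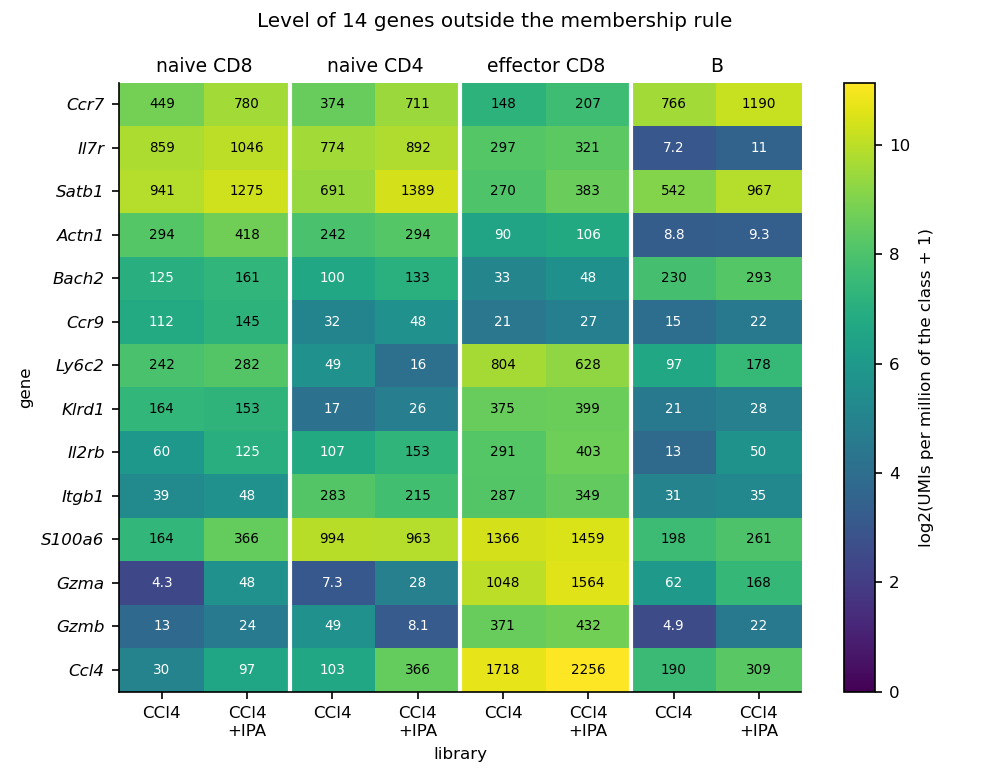
Level of 14 genes outside the rule (rows) in naive CD8, naive CD4, effector CD8 and B cells of each library (columns), as CPM of the class, with colour on a log2 scale after adding 1. Il7r is high in both naive T cell classes and low in B cells, Ccr7 is high in B cells too, Ccr9 is highest in naive CD8 T cells (112 and 145 CPM), and Gzma and Ccl4 are highest in effector CD8 T cells.

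Members differed among themselves in Ly6c2, which had a UMI in 20 of 64 members under CCl4 (31.2%, 20.2 to 44.1) and in 21 of 77 under CCl4+IPA (27.3%, 17.7 to 38.6), against 6.96% and 6.72% of B cells. Thinned to 1000 UMIs per cell, which left out 1 member of the CCl4 library, these shares were 14.3% and 18.2%. Median depth was 4325.5 and 3067 UMIs with Ly6c2 and 3510.5 and 2833.5 without. Plac8, a small cysteine-rich protein, was at 359 against 66.3 CPM and 441 against 73.9 CPM, 5.42-fold (2.57 to 12.5) and 5.97-fold (3.05 to 12.4) higher in members with Ly6c2. Among 2683 genes with at least 10 UMIs in each library 0.485% were at least 2-fold higher with Ly6c2 in both libraries and 1.94% lower. Ccr9 was at 49.6 against 146 CPM and 82.7 against 170 CPM, with intervals of the ratio that reach 1 in both libraries.

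S100a6 was 6.24-fold (1.97 to 31.7) and 18.4-fold (4.93 to 154) lower in members with Ly6c2. None of the 7 cells with Foxp3, Zbtb7b or Cd40lg held Ly6c2. Without them S100a6 fell to 3 UMIs with and 1 without Ly6c2 in the CCl4 library, and 2 with and 6 without in the CCl4+IPA library, so the difference rested on those cells. The ratio of Plac8 without them was 5.19 in each library. Eomes, a factor of memory and NK-type T cells, had 5 UMIs with and 1 without Ly6c2 in the CCl4 library and 10 with and 4 without in the other, ratios of 9.35 (1.05 to 442) and 6.06 (1.75 to 26.5), in 5 of 64 and 6 of 77 members. Without the 7 cells these ratios were 8.96 and 5.27. Cd44 had a UMI in 5 and 8 members and Gzmk in 0 and 1, while Cd44 was found in 13.3% and 13.8% of B cells.

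T cell receptor beta variable genes gave 16 UMIs over 13 members of the CCl4 library and 8 UMIs over 8 members of the CCl4+IPA library. Those UMIs spread over 11 and 6 of the 35 Trbv genes. Trbv26 had the most in the CCl4 library, 3 UMIs or 18.8%, and Trbv13-1 and Trbv3 tied in the other with 2 UMIs or 25% each. In effector CD8 T cells the most used were Trbv16 with 22.4% of 250 UMIs and Trbv12-1 with 13.0% of 138 UMIs. These counts are too few to compare variable gene use between the classes or libraries.

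Between the libraries, Nr4a2, Icos, Nrip1 and Vps37b were among the genes with the highest ratios in members of the CCl4+IPA library, and Rn18s-rs5 had the lowest. Of 3247 genes with at least 20 UMIs over both libraries, 860 were at least 1.5-fold higher in the CCl4+IPA library (26.5%) and 189 at least 1.5-fold lower (5.82%), and 70.8% were higher by any amount. The median over all genes was 0.25 on the log2 scale, a ratio of 1.19. In naive CD4, effector CD8 and B cells it was 1.19, 1.22 and 1.19, so the shift was shared by the 4 classes. Relative to this median 481 genes were higher (14.8%) and 408 lower (12.6%), a share of 54.1% higher among those past the fold against 82.0% before. With mitochondrial, ribosomal protein and ribosomal RNA UMIs left out of the total the counts were 468 and 426, a share of 52.3% higher. Ratios below are as measured and are to be read against 1.19, and "above the median" refers to it.

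Among 516 genes abundant enough to be named, the nuclear receptor gene Nr4a2, an early target of receptor signals, had the highest ratio. It went from 10 UMIs in 5 of 64 members (43.2 CPM) to 61 UMIs in 25 of 77 (245 CPM), a ratio of 5.68 (2.89 to 12.4). The same gene was at a ratio of 1.33 in naive CD4, 1.64 in effector CD8 and 2.33 in B cells. Without the 7 cells with Foxp3, Zbtb7b or Cd40lg it had 7 and 57 UMIs, a ratio of 8.13 (3.70 to 21.1). When every cell was thinned to 1000 UMIs before the rule was applied the log2 ratio was 0.061, and the cause of that change was not tested.

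Vps37b, an endosomal sorting gene, had the most UMIs of the 12 highest, 99 in 40 members (427 CPM) and 317 in 63 members (1275 CPM), a ratio of 2.98 (2.37 to 3.78). In naive CD4, effector CD8 and B cells it was 1.94, 1.82 and 2.16. The costimulatory receptor gene Icos was at 64.8 CPM in 8 members and 245 CPM in 23, a ratio of 3.79 (2.13 to 7.18), and 3.58 (1.85 to 7.45) without the 7 cells. Nrip1, a nuclear receptor corepressor, was at 125 and 406 CPM, a ratio of 3.25 (2.13 to 5.09), and 2.48 (1.56 to 4.03) without them. In naive CD4, effector CD8 and B cells the ratio was 1.44, 2.05 and 4.01 for Icos, with 14 and 41 UMIs in B cells. For Nrip1 it was 1.68, 1.61 and 1.58. The share of members with a UMI was 62.5% and 81.8% for Vps37b, 12.5% and 29.9% for Icos, and 28.1% and 55.8% for Nrip1. The part of depth in these shares was not tested.

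Irf1, an interferon-induced transcription factor, was at 108 and 286 CPM, a ratio of 2.65 (1.66 to 4.36). Malt1, a protease that links antigen receptors to NF-kB, was at 134 and 342 CPM (ratio 2.56, 1.68 to 3.99), and Nfkbiz, an NF-kB cofactor, at 130 and 322 CPM (ratio 2.49, 1.61 to 3.92). Itpkb, a kinase of inositol phosphates in T cell signalling, had a ratio of 2.36, the lipid receptor gene Gpr132 3.16, and the cytoskeletal genes Tpm4 and Abi1 2.80 each. Thinned to 1000 UMIs the log2 ratios of Abi1, Irf1 and Gpr132 were 0.11, 0.61 and 0.80, and that of Nfkbiz was 2.01 when members needed at least 2 naive gene UMIs. Cxcl10 had 22 and 96 UMIs, a ratio of 4.07 (2.54 to 6.79), but 13 of 22 UMIs and 40 of 96 UMIs came from 1 cell in each library, and without the 7 cells the ratio was 1.64 (0.869 to 3.20). Of these 12 genes 8 were above the median of naive CD4, 10 above that of effector CD8 and 9 above that of B cells.

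The lowest ratios were those of ribosomal RNA features. Rn18s-rs5 had a ratio of 0.157 (0.152 to 0.163), Lars2, whose gene holds ribosomal RNA-like sequence, 0.177 (0.143 to 0.218), and Mir6236, another such feature, 0.384 (0.314 to 0.469), and in naive CD4, effector CD8 and B cells all 3 had ratios of 0.318 or less. The inducible chaperone gene Hspa1a was at 250 CPM in 22 members and 125 CPM in 12, a ratio of 0.498 (0.311 to 0.783). Kmt2c, a histone methyltransferase gene, was at 224 CPM in 35 members and 121 CPM in 21, a ratio of 0.538 (0.331 to 0.859), and Adgre5, an adhesion receptor gene, had 0.693 (0.480 to 0.995). For Gimap9, Prpf4b, Inpp4b, Hmgb1, Septin1 and Mndal the ratios ran from 0.658 to 0.749 with intervals that include 1. Hspa1a, Hmgb1 and Septin1 were on the other side of 1 after thinning, and Kmt2c had a log2 ratio of -0.20. Without demands on Cd79a, S100a8 and Lyz2 the log2 ratio of Hspa1a was -0.099.

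**Figure D4:**
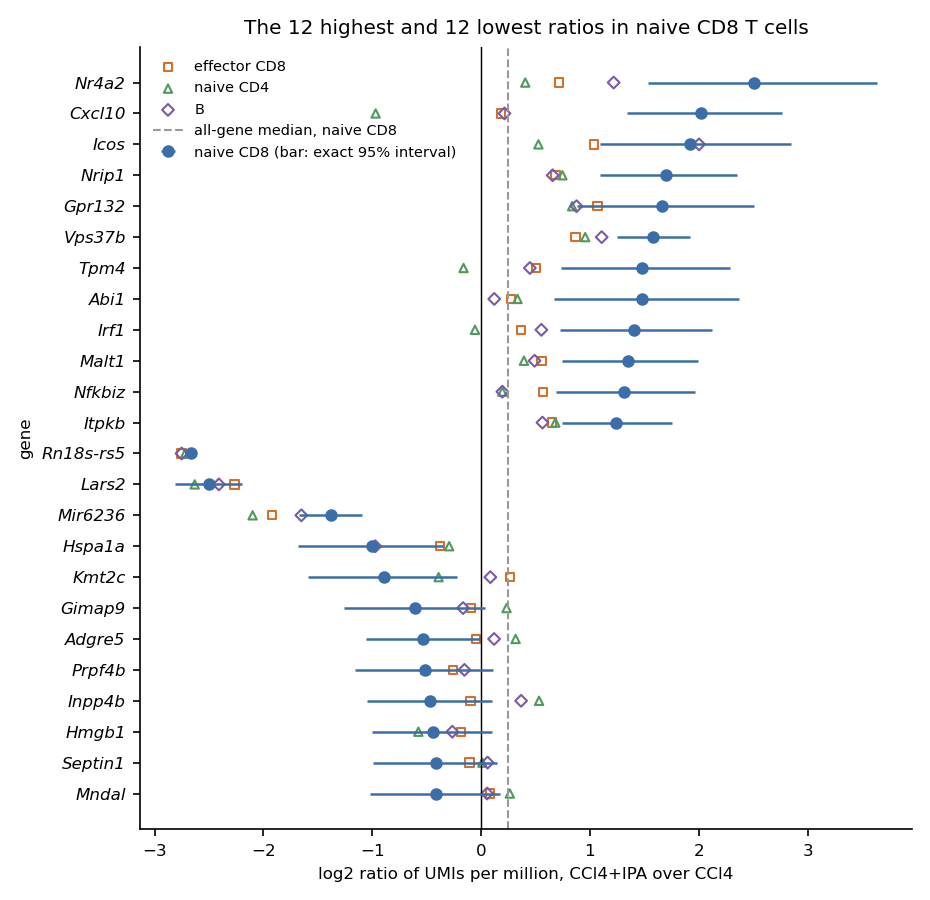
Log2 ratio of CPM, CCl4+IPA over CCl4, for the 12 highest and 12 lowest genes in naive CD8 T cells (filled circles with exact 95% intervals), with the same ratio in effector CD8 T cells (squares), naive CD4 T cells (triangles) and B cells (diamonds); the dashed line is the all-gene median of naive CD8 T cells. Ribosomal RNA features are low in all 4 classes, while Nr4a2 stands at 5.68-fold in naive CD8 T cells and 2.33-fold or less in the others.

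The naive programme differed little in level between the libraries. Of its 20 genes 13 were above the all-gene median, beside 49.9% of all genes, and its median was 0.06 above it on the log2 scale. Relative to that median 1 gene was at least 1.5-fold above, Klf2, and 2 at least 1.5-fold below, Rgs10 and Ramp1. Klf2 was at 1282 CPM in the CCl4 library and 2647 CPM in the CCl4+IPA library, a ratio of 2.06 (1.80 to 2.38), and 2.11 (1.84 to 2.43) without the 7 cells. Ccr7 was at 449 and 780 CPM (ratio 1.74, 1.36 to 2.23) and S1pr1 at 332 and 503 CPM (ratio 1.51, 1.13 to 2.04). The ratio of Ccr7 was 1.90 in naive CD4, 1.40 in effector CD8 and 1.55 in B cells. Foxp1, a factor that holds T cells quiescent, had a ratio of 1.02 (0.803 to 1.30). Rgs10, a regulator of G protein signalling, was at 203 and 105 CPM, a ratio of 0.516 (0.306 to 0.850).

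Immediate early genes, induced within minutes by receptor signals or by tissue dissociation, were mostly above the median. Of 21 measured 17 were above it and 4 below, with a list median 0.40 above on the log2 scale. Fos, the most abundant, was at 1420 and 2200 CPM (ratio 1.55, 1.35 to 1.78), with 89 of its 547 UMIs in the CCl4+IPA library in 1 cell. Nr4a1, a marker of recent antigen receptor signalling, was at 281 and 575 CPM (ratio 2.05, 1.52 to 2.79), Junb at 937 and 1561 CPM (ratio 1.67, 1.41 to 1.98), and Tnfaip3, an NF-kB inhibitor, at 337 and 680 CPM (ratio 2.02, 1.54 to 2.68). Jun had a ratio of 1.13 (0.918 to 1.39) and Egr1, the lowest, 0.822 (0.486 to 1.38), so members of the list differed in direction.

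Of 10 NF-kB pathway genes measured 7 were above the median, with a list median 0.65 above on the log2 scale. Rel, a subunit of the factor that T cells use on activation, was at 38.9 and 121 CPM (9 and 30 UMIs; ratio 3.11, 1.44 to 7.44), Ikbkb 1.96-fold and Nfkb1 1.86-fold. The inhibitor gene Nfkbia had a ratio of 1.22 (0.910 to 1.64) and Birc3 0.699 (0.333 to 1.44). Of 7 interferon gamma-inducible genes measured 5 were above it, with a list median 0.85 above. The GTPase genes Gbp7 and Igtp had ratios of 3.11 (1.44 to 7.44) and 2.26 (1.18 to 4.57), and Gbp9 0.932 (0.425 to 2.05). Of 19 type I interferon-stimulated genes 10 were above and 9 below: Samhd1, a restriction factor, was at 242 and 491 CPM (ratio 2.03, 1.47 to 2.84), while Ifit1 was at 164 and 84.5 CPM (ratio 0.515, 0.287 to 0.900).

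Of 22 T cell receptor signalling genes 15 were above the median, with a list median 0.17 above on the log2 scale. Cd28, the costimulatory receptor, was at 255 and 555 CPM (ratio 2.18, 1.60 to 3.01), and Ptprc, the phosphatase CD45, at 1269 and 1726 CPM (ratio 1.36, 1.17 to 1.58). In naive CD4, effector CD8 and B cells Cd28 had ratios of 1.29, 1.40 and 1.34. Lck and Zap70, kinases of the receptor, had ratios of 1.26 and 1.11 with intervals that include 1. Of 8 glucocorticoid-responsive genes 7 were above, led in level by Il7r, Tsc22d3 (453 and 821 CPM; ratio 1.81, 1.42 to 2.31) and Dusp1 (518 and 821 CPM; ratio 1.58, 1.26 to 2.00). Nr3c1, the glucocorticoid receptor itself, had 0.690 (0.367 to 1.28).

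Of 12 genes of the aryl hydrocarbon and pregnane receptors, through which indoles are known to act, 4 were measured. Tiparp, a target of the aryl hydrocarbon receptor, had 17 and 25 UMIs, a ratio of 1.37 (0.711 to 2.70), and Arnt, its partner, 10 and 12 UMIs. Of the 4 genes 3 were above the median, beside 49.9% of all genes, with a list median 0.32 above on the log2 scale. As measured 2 were at least 1.5-fold higher, beside 26.5% of all genes. Relative to the median 1 was at least 1.5-fold above, beside 14.8% of all genes. All 4 intervals include 1, so no difference was detectable for any single gene at this depth. Of 14 heat shock and chaperone genes 13 were below the median: Hsp90ab1 was at 1269 and 1034 CPM (ratio 0.815, 0.686 to 0.966) and Hspa8 at 747 and 885 CPM (ratio 1.19, 0.967 to 1.45). The linker histone gene H1f4 had 28 and 10 UMIs, a ratio of 0.333 (0.144 to 0.706).

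Class I presentation genes stayed at the median, with 7 of 15 above it. B2m was at 2219 and 2317 CPM (ratio 1.04, 0.926 to 1.18) and H2-K1 at 1731 and 2023 CPM (ratio 1.17, 1.02 to 1.34), while Tap1, a peptide transporter, was at 104 and 217 CPM (ratio 2.10, 1.27 to 3.55). Of 7 survival and death genes 5 were above: Bcl2l11, the death-promoting Bim, had 13 and 38 UMIs (ratio 2.72, 1.42 to 5.57), and Bcl2, its inhibitor, was at 423 and 515 CPM (ratio 1.22, 0.928 to 1.60). Of 10 checkpoint genes 3 were measured and all 3 were above. Ctla4 was at 47.5 and 169 CPM, a ratio of 3.56 (1.80 to 7.66), and without the 7 cells had 7 and 10 UMIs, a ratio of 1.43 (0.490 to 4.42). S100a6 likewise was at 164 and 366 CPM, and without those cells held 4 and 8 UMIs.

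**Figure D5:**
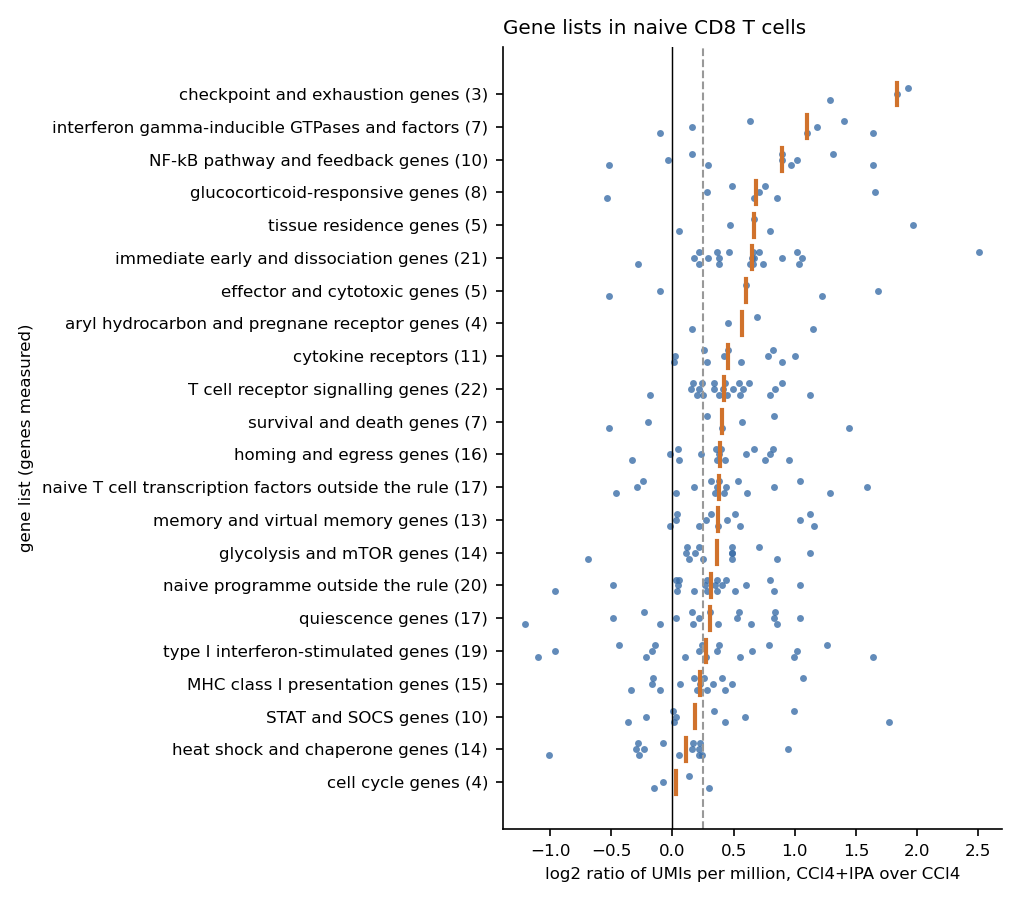
Log2 ratio of CPM, CCl4+IPA over CCl4, of each measured member (points) of the gene lists with at least 3 measured members, with the list median (vertical bars) and the all-gene median (dashed line, 0.25); points are spread vertically only for legibility. Heat shock genes lie mostly left of the dashed line (13 of 14) and immediate early genes mostly right of it (17 of 21).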

How the data were processed

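Single-cell RNA was measured in 2 libraries. The authors deposited UMI counts per gene and barcode from Cell Ranger 7.1.0, per the file headers. The submitters' processing notes name mm9 as the build, while the deposited gene labels, such as H2az1 for H2afz, look later. The build was not checked here. Introns and barcode calling are not given in the sources used here. Liver was digested with enzymes and depleted of red and dead cells, and 10x 3′ V3 libraries were made, per the labels' protocols.

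UMIs were summed over each class per library and scaled to its total. Intervals (95%) are exact Poisson for CPM, conditional binomial for ratios and Clopper-Pearson for shares. Only those for ratios were checked, on simulated Poisson counts, which lack the clumping of UMIs in single cells. A 0 was set at 3 UMIs of the class. Depth is the class totals in the text.

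Named between libraries were the 12 highest and 12 lowest ratios among genes with 50 CPM and 50 UMIs in the higher library; in lists, the 2 most abundant and the extremes; between classes, 8 each way by the smaller library ratio, at 100 CPM. Rule genes, gene models without symbols, Xist, Y-linked genes, receptor and antibody segments, haemoglobins, and mitochondrial and ribosomal protein genes were left out. Other named list members, and the Foxp3, Zbtb7b and Cd40lg split, were chosen after their values were seen. Not every named gene is printed, and some results are not reported here. Members and the 23 gene and 14 marker lists were chosen with earlier results of these data known. Alternatives changed filters, scaling, thinning, doublets (Scrublet in scanpy 1.11.5) and rule steps. Python 3.11.15, numpy 2.4.6 and scipy 1.17.1 were used.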

Additional observations from a re-analysis of the deposited data

How the results depend on the processing

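The abundance ratio stayed within its counting interval under 11 alternatives. Counts of genes at least 1.5-fold higher and lower in the CCl4+IPA library, 860 and 189, were 468 and 426 when scaled without mitochondrial and ribosomal UMIs, 481 and 408 divided by the all-gene median, 250 and 63 thinned to 1000 UMIs, 234 and 24 with at least 50 UMIs, 315 and 56 at 2-fold, and 329 and 34 with an interval beyond 1. Without demands on Cd79a, S100a8 and Lyz2, 294 were lower. Thinning has fewer UMIs to count: it gave 6 higher and 11 lower genes against naive CD4 (22 and 110 before) and 67 and 281 against effector CD8 (194 and 499 before). After thinning 3 named genes reversed, Hspa1a to 0.26, Hmgb1 to 0.26 and Septin1 to 0.093 on the log2 scale, and the cause was not tested. Added after seeing the data were the settings without cells with Foxp3, Zbtb7b or Cd40lg, the minimum of 2 CD8 or naive UMIs for genes, and the dropped demand on Ccl5, which gave an abundance ratio of 1.26 (1.01 to 1.59). No paired analysis was possible because each group has 1 library.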

Other observations

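The cytokine receptor list and the glycolysis and mTOR list had not been described above as lists. Of 11 cytokine receptor genes measured in naive CD8 T cells 9 were above the all-gene median of the CCl4+IPA to CCl4 ratio: Il6st, the signalling chain of the IL-6 receptor, was at 86.3 and 173 CPM (ratio 2.00, 1.15 to 3.60), while Il6ra, its ligand-binding partner, was at 194 and 197 CPM (ratio 1.01, 0.663 to 1.56). Il2rg, the common gamma chain, had a ratio of 1.01 (0.700 to 1.46). Of 14 glycolysis and mTOR genes measured 7 were above, and Gapdh, the most abundant, was at 237 and 261 CPM (ratio 1.10, 0.757 to 1.61). Among transcription factors Myb was at 56.1 and 169 CPM (ratio 3.01, 1.59 to 6.11), with 14 of its 42 UMIs in the CCl4+IPA library in 1 cell. Stat5a had 6 and 22 UMIs (ratio 3.42, 1.34 to 10.3), and Stat5b, its near-identical relative, 36 and 30 (ratio 0.777, 0.462 to 1.30).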
